A study of Mus musculus with 4 samples.

Results

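The comparison described here is that of microglia labelled Bid-/- after lipopolysaccharide (LPS) with untreated microglia of the same label. It rests on 2 of the 4 arrays of the study, 1 for each condition, and every gene value is the LPS array minus the control array. Of the 19938 genes named by a single symbol, 10995 reached the level described below on at least 1 of both arrays and were compared.

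Total RNA of mouse microglia, the macrophages that live in brain tissue, was hybridized to Affymetrix Mouse Gene 1.0 ST arrays, whose probe sets spread many probes along a transcript. The other 2 arrays hold wild-type (WT) microglia labelled C57Bl, untreated and after LPS. LPS was given for 3 h. The labels used here do not give its dose, the strain behind the Bid-/- label, the animals' age or how many cultures were taken. By the design text the study had no replication, so no difference below has a replicate check and none was given a p-value. The title of the study names the inflammatory transcription profile of both genotypes as its question.

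LPS is a component of the outer membrane of Gram-negative bacteria. Macrophages and microglia sense it through CD14, MD-2 and Toll-like receptor 4 (Tlr4), whose adaptors lead to NF-kB, the MAP kinases and interferon regulatory factors. NF-kB then drives cytokine and chemokine genes and, with some delay, genes that shut the response off. Bid is a BH3-only member of the Bcl-2 family that caspase-8 cleaves to link death receptors to mitochondria, and it has also been linked to innate immune signalling.

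The values are expression levels taken as log2, so a difference of 1 is a 2-fold change. A gene was compared when the higher of both arrays reached 4.26, the level at which the middle probe set of the platform sits when the 4 arrays are averaged, called the floor below. Levels are given in the order control array, LPS array, followed in brackets by their difference and the difference of the WT pair. The probe set of Bid itself, which checks the label, lies in the gene at chr6:120893119-120917062 (GRCm38.p6). Bid read 5.69 on the WT control array, 5.02 on the WT LPS array, 5.53 on the control array labelled Bid-/- and 5.97 on the LPS array labelled Bid-/-. On the control arrays the label Bid-/- read slightly below WT and on the LPS arrays above it, so the loss of signal that a deletion under the probes would give was not seen, and the difference with LPS was 0.44 there and -0.67 in WT. Which part of the gene was deleted, and whether the probes lie inside it, is not stated in the labels, so this probe set does not settle the genotype and the arrays are called "labelled Bid-/-" throughout.

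The label of the cells was set against marker genes. Csf1r, the receptor for the growth factor microglia depend on, read 10.78 on the control and 10.46 on the LPS array labelled Bid-/-. Tyrobp, a signalling adaptor of myeloid cells, read 10.01 and 9.71, and the complement gene C1qa 11.58 and 11.21. Of the markers used to tell microglia from other macrophages, Fcrls read 10.59 and 9.95, Tmem119 5.45 and 5.12, and P2ry12 4.38 and 3.90. Siglech, Gpr34, Slc2a5 and Slco2b1 were below the floor on both arrays. Several defining markers of microglia in the brain were thus at or near the lower end of the measured range. Others were not: Cx3cr1 read 9.76 and 8.35, Olfml3 8.80 and 7.87, and P2ry13 7.33 and 6.28. Of 32 measured genes of a list drawn up for the resting microglial state, 28 were at the floor. Of the markers of other cells, 0 of 9 neutrophil markers were at the floor, 1 of 10 neuron markers and 1 of 8 lymphocyte markers. At the floor were 4 of 9 astrocyte markers, among them Gja1 (5.29 and 5.80), and 4 of 8 endothelial markers. So were 7 of 9 oligodendrocyte lineage markers. Cnp of that list read 8.76 and 7.88, but the 9 markers had a median level of 4.35 and 4.55. The 12 fibroblast and mural markers had a median level of 5.89 and 5.77, with Dcn at 8.09 and 7.44 (WT 5.94 and 7.31). Of them 8 were at the floor. Of 8 markers of monocytes and border macrophages 3 were, with Pf4 at 8.75 and 8.16 and Ms4a7 at 9.31 and 9.34. Their part in the differences below was not tested.

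LPS went with an increase of 2-fold or more in 297 genes (2.7% of the genes compared) and with a decrease of 2-fold or more in 181 (1.65%), or 478 in either direction (4.35%). At 4-fold the counts were 61 and 10, at 8-fold 14 and 0, and at 16-fold 1 and 0, that gene being Edn1. The 2-fold increases therefore reached further than the 2-fold decreases, while across all genes compared the balance ran the other way, with 4248 above 0, 6607 below 0 and a median difference of -0.10. Differences for 95% of genes lay between -0.89 and 1.04, so a 2-fold decrease lay outside that range and a 2-fold increase just inside it. On the control array, 32 of the 297 higher genes were below the floor, and on the LPS array 24 of the 181 lower genes were. The higher share of the calls was 62.1%; it was 71.9% after quantile normalization of the 4 arrays, 79.1% after a trend with intensity was taken out of the differences and 77.6% after trends with intensity and gene span were. Taking out the intensity trend moved the median of all genes from -0.10 to 0.011, and the medians of gene lists below are to be read against the -0.10. Counts of list members past 2-fold are to be read against the 2.7% of all genes compared that were higher and the 1.65% lower.

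**Figure D1:**
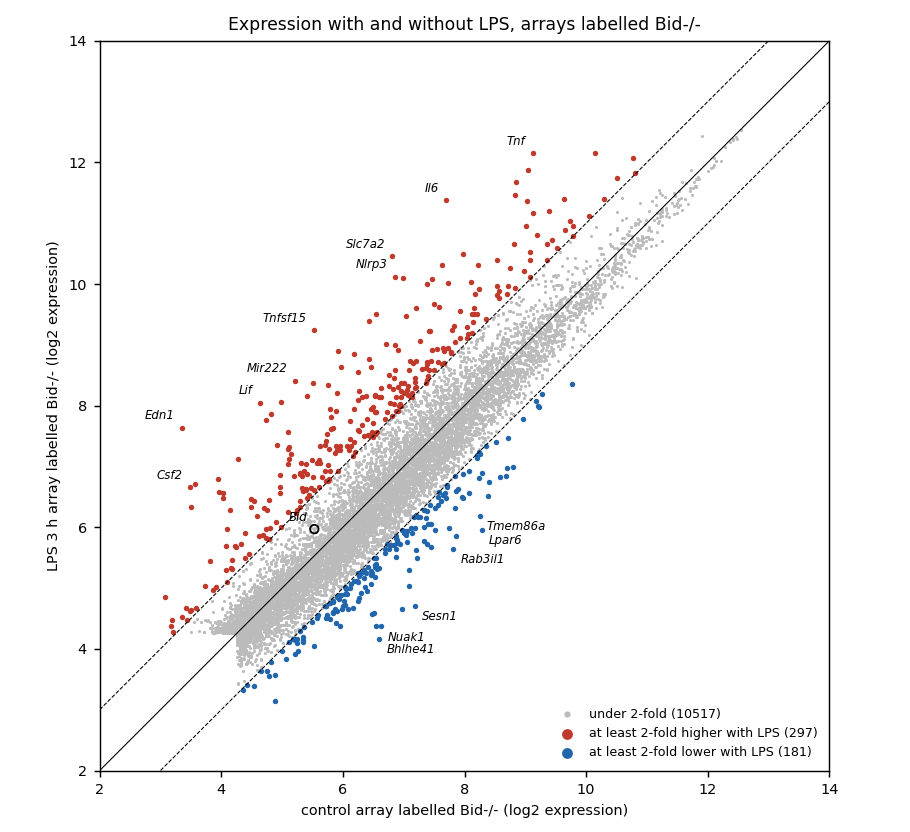
Each point is 1 of the 10995 genes compared, with its log2 expression on the control array labelled Bid-/- (x axis) and on the LPS array (y axis). Red points are the 297 genes past 2-fold upward, blue points the 181 past 2-fold downward, grey points the rest; the solid line marks equal levels and the dashed lines a 2-fold difference, and the open circle is Bid (5.53 and 5.97).

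The largest increase was that of Edn1, which encodes endothelin-1, a peptide that constricts blood vessels. Edn1 read 3.35 on the control array and 7.64 on the LPS array, a 19.6-fold difference (WT 3.45 and 6.93). Its control level was below the floor, so the size of this fold depends on a dim value. Tnfsf15, a ligand of the TNF superfamily, followed at 5.52 and 9.24 (difference 3.72, WT 3.80). The interleukin-6 gene Il6 read 7.70 and 11.38 (3.68, WT 4.47). Lif, a cytokine of the same family, read 4.64 and 8.05 (3.41, WT 3.85).

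Tnf, a cytokine released early in the response, read 9.12 without and 12.15 with LPS (3.03, WT 2.87). Csf2, which encodes the growth factor GM-CSF, read 3.48 and 6.66 (3.18, WT 4.01). Il12b, the shared p40 chain of interleukins 12 and 23, read 4.27 and 7.13 (2.86, WT 3.72). Il1a read 8.83 and 11.46 (2.63, WT 3.77), while its relative Il1b, already at 10.50 on the control array, read 11.75 (1.25, WT 1.77). Il10, the main cytokine that restrains macrophages, read 5.76 and 8.34 (2.58, WT 2.53), so signals that drive and signals that limit inflammation were both higher with LPS. Of 27 cytokine and growth factor genes at the floor, 17 were at least 2-fold higher and 1 lower (all genes compared: 2.7% and 1.65%). The list had a median difference of 1.48 (WT 2.05). That median was 2.54 over the 21 genes at a floor of 6 and 1.25 with no floor. The lower one was Tnfsf10, which encodes the death ligand TRAIL, at 5.97 and 4.89 (-1.08, WT -1.34). It was under 2-fold after quantile normalization (-0.98) and with the intensity trend (-0.90) or both trends removed (-0.85). Il12a and Ifnb1, the interferon beta gene, were below the floor on both arrays.

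Of the 23 chemokine genes at the floor, 7 were at least 2-fold higher and 0 lower (all genes compared: 2.7% and 1.65%). The list had a median difference of 0.53 (WT 0.54). Cxcl1, a neutrophil attractant, read 6.55 and 9.51 (2.96, WT 4.20). Cxcl2, its close relative, read 8.85 and 11.68 (2.83, WT 3.46). Ccl4, which attracts monocytes and lymphocytes, read 9.04 and 11.87 (2.83, WT 2.42). Ccl22 read 4.25 and 5.67 (1.42, WT 2.30), and Cxcl3 read 9.08 and 10.39 (1.31, WT 2.87). Among the chemokines under the 2-fold limit, some were bright on both arrays: Ccl3 read 11.90 and 12.43, and Ccl5 read 12.37 and 12.33.

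Genes of a list drawn up for NF-kB subunits and inhibitors were among those higher with LPS. Of 21 at the floor, 10 were at least 2-fold higher and 0 lower (all genes compared: 2.7% and 1.65%). The 10 include Tnfaip2 and Traf1, which encode neither subunits nor inhibitors. The list had a median of 0.91 (WT 1.08). The list was chosen with earlier results of these data known, so its count is a description. Tnfaip3, which encodes the ubiquitin-editing inhibitor A20, read 7.63 and 10.31 (2.68, WT 2.43). Rel, a subunit of NF-kB, read 8.22 and 10.31 (2.09, WT 1.38). Tnfaip2 read 9.13 and 11.17 (2.04, WT 1.63). Nfkbiz, an atypical inhibitor that also acts as a coactivator of Il6, read 8.54 and 10.40 (1.86, WT 0.98). Nfkbid, another atypical inhibitor, read 5.80 and 7.62 (1.82, WT 1.69). Nfkbia, the classical inhibitor IkB-alpha, read 9.74 and 11.03 (1.29, WT 1.46).

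The 250 bases before the annotated start of these genes were searched for a kB-type motif, GGGNNTTTCC, or GGAAANNCCC on the other strand. RefSeq promoter windows (GRCm38.p6) were at hand for 8832 of the genes compared, among them 220 of the higher and 159 of the lower genes, some with more than 1 window. The motif was in 1.41% of all 32851 windows, in 1.47% of those of the genes compared, in 4.17% of 288 windows of the genes at least 2-fold higher, in 12.5% of 48 windows of those at least 4-fold higher, and in 1.4% of 214 windows of the lower genes. An AP-1-type motif, TGANTCA, was in 4.5% of windows of the genes compared, 7.99% of those of the higher genes, 22.9% of those at least 4-fold higher and 5.14% of those of the lower genes. An interferon-response motif, GAAANNGAAA or TTTCNNTTTC, was in 2.76%, 4.17%, 6.25% and 4.67%. No test was run on these shares. A kB match shared a base with an AP-1 match in 0 of the 165 matching windows of genes compared, and with an interferon-response match in 1. Among the cytokine, chemokine and NF-kB genes that the rule for named genes picked, 15 had a window and 6 held a kB match. These 6 windows are shown because they hold a match and belong to genes whose levels are given above. They were thus picked on the motif they show, and named genes without a match are not shown. They are the plus-strand windows of Il6 (chr5:30012864-30013113), Cxcl1 (chr5:90890995-90891244), Cxcl2 (chr5:90903649-90903898) and Cxcl3 (chr5:90785851-90786100) and the minus-strand windows of Tnfaip3 (chr10:19015411-19015660) and Rel (chr11:23770970-23771219). Each runs toward the start of the gene, and capitals mark the kB matches:
Il6: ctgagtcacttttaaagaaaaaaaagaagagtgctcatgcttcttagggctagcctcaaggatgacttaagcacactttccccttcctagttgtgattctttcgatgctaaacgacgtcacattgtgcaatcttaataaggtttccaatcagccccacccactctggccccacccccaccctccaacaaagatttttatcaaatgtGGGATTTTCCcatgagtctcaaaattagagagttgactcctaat
Cxcl1: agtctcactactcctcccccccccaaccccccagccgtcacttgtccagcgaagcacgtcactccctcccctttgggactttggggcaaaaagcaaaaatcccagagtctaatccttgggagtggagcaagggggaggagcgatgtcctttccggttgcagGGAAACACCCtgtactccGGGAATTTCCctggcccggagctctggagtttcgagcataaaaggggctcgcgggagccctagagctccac
Cxcl2: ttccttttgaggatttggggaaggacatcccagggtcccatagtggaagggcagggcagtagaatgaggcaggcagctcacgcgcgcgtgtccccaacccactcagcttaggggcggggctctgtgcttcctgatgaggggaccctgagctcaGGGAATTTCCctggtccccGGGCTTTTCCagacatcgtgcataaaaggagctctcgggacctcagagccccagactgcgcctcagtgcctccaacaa
Cxcl3: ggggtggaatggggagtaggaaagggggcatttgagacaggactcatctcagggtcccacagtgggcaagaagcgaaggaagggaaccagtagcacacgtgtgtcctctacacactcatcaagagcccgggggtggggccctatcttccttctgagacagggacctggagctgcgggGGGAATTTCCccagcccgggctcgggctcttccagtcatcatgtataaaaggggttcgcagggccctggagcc
Tnfaip3: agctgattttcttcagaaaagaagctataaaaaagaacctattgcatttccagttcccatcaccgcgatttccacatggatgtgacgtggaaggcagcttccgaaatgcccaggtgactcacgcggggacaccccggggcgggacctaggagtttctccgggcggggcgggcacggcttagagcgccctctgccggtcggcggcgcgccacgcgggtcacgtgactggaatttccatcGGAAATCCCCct
Rel: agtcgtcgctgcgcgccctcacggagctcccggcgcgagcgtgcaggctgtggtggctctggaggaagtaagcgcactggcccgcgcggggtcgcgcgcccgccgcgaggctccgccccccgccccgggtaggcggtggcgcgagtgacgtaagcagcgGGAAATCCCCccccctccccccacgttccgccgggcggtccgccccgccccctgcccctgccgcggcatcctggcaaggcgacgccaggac

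The Il6 match lies 44 to 35 bases before the start. Cxcl1 has matches at 89 to 80 and 71 to 62 bases, and Cxcl2 at 97 to 88 and 78 to 69 bases. The Cxcl3 match lies at 73 to 64 bases, the Rel match at 91 to 82 and the Tnfaip3 match at 12 to 3. The 3 CXC chemokine windows share the 10 letters GGGAATTTCC, although the differences of their genes ranged from 1.31 for Cxcl3 to 2.96 for Cxcl1. A match describes the letters of the window, not binding of the factor.

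Of 28 genes at the floor in the list of inflammatory enzymes and proteases, 11 were at least 2-fold higher, against 2.7% of all genes compared, and 1 was lower. The median was 0.45 (WT 0.92), and 0.78 at a floor of 6. Slc7a2, which imports the arginine used for nitric oxide, read 6.81 and 10.46 (3.65, WT 3.57). Serpinb2, an inhibitor of plasminogen activators, read 7.39 and 10.00 (2.61, WT 3.91). Mmp13, a collagenase, read 7.97 and 10.49 (2.52, WT 2.99). Ch25h, which makes 25-hydroxycholesterol, read 9.03 and 11.36 (2.33, WT 2.90). The lower one was Ptger4, a receptor for prostaglandin E2, at 6.54 and 4.38 (-2.16, WT -2.06), whereas the prostaglandin synthase gene Ptgs2 read 10.15 and 12.15 (2.00, WT 2.90). Bright control levels that moved little were seen for the acute-phase gene Saa3, at 12.28 and 12.25.

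Among receptors and sensors, Nlrp3, the sensor of the inflammasome that activates interleukin-1 beta, read 6.86 and 10.12 (3.26, WT 3.16). Olr1, a scavenger receptor for oxidized lipoprotein, read 3.57 and 6.71 (3.14, WT 2.57). Nod2, a sensor of bacterial cell wall fragments, read 5.41 and 6.88 (1.47, WT 0.96), and the C-type lectin gene Clec4e read 9.79 and 10.96 (1.17, WT 1.47). These were the members of the pattern receptor and inflammasome list past 2-fold apart from Olr1, which the list does not hold: 3 of 23 at the floor were higher and 0 lower. The LPS receptor genes moved less. Tlr4 read 7.84 and 7.03 (-0.81, WT -0.92), Ly96, which encodes MD-2, 8.13 and 8.33, Cd14 10.88 and 11.34, and the adaptor Myd88 9.75 and 9.81. Of 36 genes of Toll-like receptor signalling at the floor, 3 were at least 2-fold higher (all genes compared: 2.7%). They were Malt1, a protease of the NF-kB pathway (6.99 and 10.10, WT 2.99), the ubiquitin ligase gene Peli1 (8.81 and 10.66; 1.85) and Bcl10, the partner of Malt1 (7.11 and 8.16; 1.05).

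**Figure D2:**
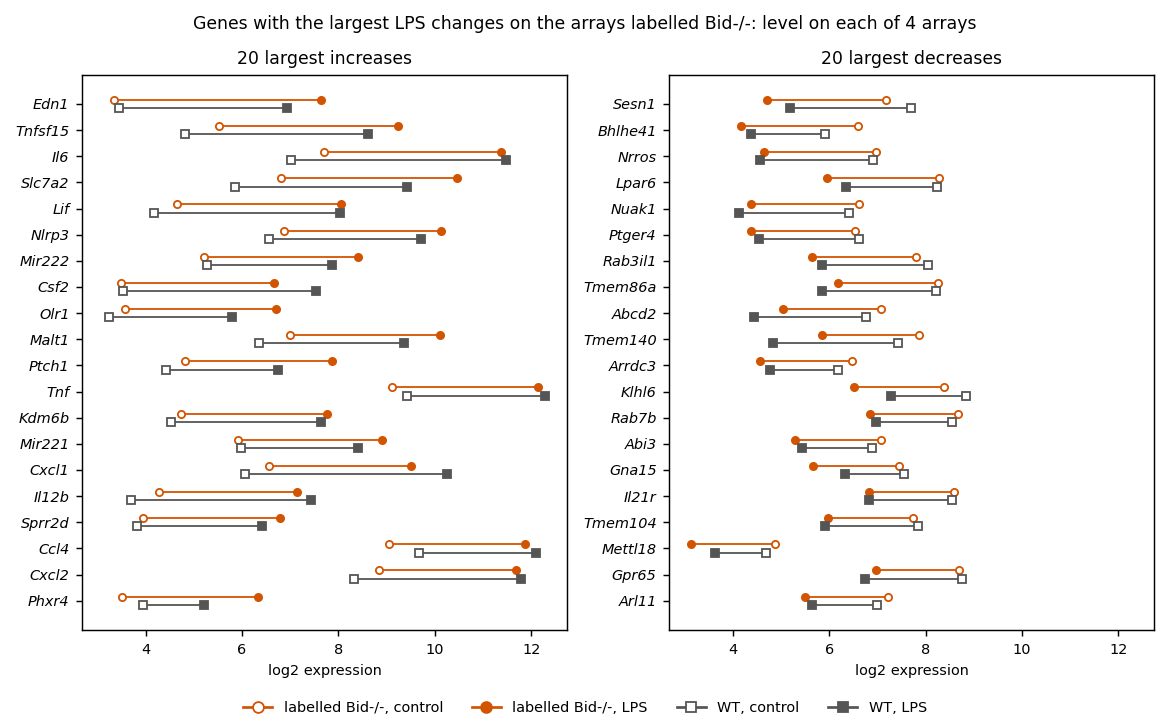
Log2 expression on each of the 4 arrays for the 20 largest increases (left) and the 20 largest decreases (right) on the arrays labelled Bid-/-; open symbols are control arrays, filled symbols LPS arrays, circles the label Bid-/- and squares WT. In all 20 genes of the left panel and all 20 of the right panel the WT pair moved at least 2-fold in the same direction.

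A list of phosphatase and feedback genes formed another group. Of 18 MAP kinase phosphatase and feedback genes at the floor, 5 were at least 2-fold higher and 1 lower. These calls include Gadd45a, Gadd45b and Gadd45g beside the phosphatase genes Dusp1, Dusp2 and Dusp16. Among all genes compared, 2.7% were higher and 1.65% lower. The list had a median of 0.30 (WT 0.44). Dusp16 read 7.21 and 9.60 (2.39, WT 1.99), and Dusp1, the phosphatase that switches off p38, read 7.72 and 10.01 (2.29, WT 2.27). Gadd45a read 6.43 and 8.76 (2.33, WT 2.74), whereas its relative Gadd45g read 6.27 and 4.84 (-1.43, WT -0.73), so members of 1 small family moved in opposite directions. Zc3h12a, which encodes the cytokine mRNA nuclease Regnase-1, read 6.90 and 8.92 (2.02, WT 1.59). Zfp36l2, whose product also promotes mRNA decay, read 7.89 and 6.63 (-1.26, WT -1.28). Socs3, an inhibitor of signalling by the interleukin-6 family, read 8.18 and 9.84 (1.66, WT 2.10) and was the 1 member past 2-fold among 16 SOCS, JAK and STAT genes at the floor. Jak2 (0.99) and Stat5a (0.94) passed 2-fold after quantile normalization (1.04 each), with the intensity trend removed (1.08 and 1.15) and with both trends removed (1.01 and 1.19), which made the count 3.

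Transcription factors of the early response were mixed, with a median of 0.27 (WT 0.44). Of 28 at the floor, 8 were at least 2-fold higher and 0 lower (all genes compared: 2.7% and 1.65%). Maff, a small Maf factor, read 4.03 and 6.48 (2.45, WT 3.24). Ier2 read 5.09 and 7.28 (2.19, WT 1.98), Nr4a1 3.81 and 5.44 (1.63, WT 1.86) and Egr1 4.70 and 6.31 (1.61, WT 1.86). Fos and Jun, the founding members of AP-1, were not among them: Fos read 6.34 and 5.63, and Jun 6.94 and 6.15. Kdm6b, which removes the repressive methyl marks of histone H3 lysine 27, read 4.74 and 7.76 (3.02, WT 3.10). Ptch1, the receptor for hedgehog ligands, read 4.82 and 7.86 (3.04, WT 2.31).

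MicroRNA genes stood among the largest increases. Of 93 at the floor, 12 were at least 2-fold higher and 0 lower, against 2.7% of all genes compared, and 6 of the 12 were also at least 2-fold higher in WT. The probe sets read the microRNA gene and do not tell its mature arms apart. For a group of 6 of these genes the mature 5p or 3p arm is shown with its seed, bases 2 to 8, in capitals, since the seed sets which messages a microRNA can pair with (RefSeq, GRCm38.p6):
mmu-miR-155-5p: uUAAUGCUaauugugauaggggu
mmu-miR-221-3p: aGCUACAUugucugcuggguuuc
mmu-miR-222-3p: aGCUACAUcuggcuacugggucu
mmu-miR-99b-5p: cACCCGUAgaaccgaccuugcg
mmu-let-7e-5p: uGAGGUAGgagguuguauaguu
mmu-miR-125a-5p: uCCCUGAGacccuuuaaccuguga

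miR-221 and miR-222 share the seed GCUACAU, and their genes lie within 617 bases at chrX:19146307-19146923. Mir222 read 5.21 and 8.41 (3.20, WT 2.58), and Mir221 read 5.92 and 8.90 (2.98, WT 2.43). Mir155, a microRNA known to be induced by Toll-like receptors in macrophages, read 7.50 and 9.67 (2.17, WT 1.96). The genes of miR-99b, let-7e and miR-125a lie within 683 bases at chr17:17830194-17830876 and were all higher with LPS, with smaller WT values. Mirlet7e differed by 1.64 (WT 0.65), Mir99b by 1.33 (WT 0.56) and Mir125a by 1.15 (WT 0.03). Mir181b-1 (1.90, WT 0.74) and Mir181a-1 (1.14, WT 0.08) lie within 243 bases at chr1:137966468-137966710 and share a seed:
mmu-miR-181a-5p: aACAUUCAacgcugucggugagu
mmu-miR-181b-5p: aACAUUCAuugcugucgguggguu

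Mir99a, whose 5p arm has the seed ACCCGUA of miR-99b, read 3.73 and 5.03 (1.30, WT 0.34). Mir18 read 3.19 and 4.47 (1.28, WT 1.90), Mir20a 3.42 and 4.67 (1.25, WT 1.45) and Mir19b-1 3.21 and 4.28 (1.07, WT 1.24). These genes of the miR-17-92 cluster moved at least 2-fold in WT too. On the control array labelled Bid-/- they, Mir99a and Mir181a-1 (3.48) were below the floor of 4.26, so these differences depend on dim values. The median over the 93 microRNA genes was 0.30 (WT 0.19) and 79 of them were above 0. With both trends, in intensity and in gene span, taken out, the median was 0.02 and 6 of the 93 were at least 2-fold higher. Those then under 2-fold were Mir125a (0.94), Mir99a (0.90), Mir18 (0.88), Mir20a (0.88), Mir181a-1 (0.75) and Mir19b-1 (0.65). Small nucleolar RNA genes, also short, had a median of 0.46 over 40 genes at the floor (WT 0.48), with 3 at least 2-fold higher and 0 lower. With both trends removed their median was 0.21 and 1 was at least 2-fold higher, and at a floor of 6 the count was 0.

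The largest decreases were led by Sesn1, which encodes sestrin 1, a stress protein that restrains mTORC1. Sesn1 read 7.18 on the control array and 4.71 on the LPS array (-2.47, WT -2.52). Bhlhe41, a transcriptional repressor of the clock and of macrophage genes, read 6.60 and 4.17 (-2.43, WT -1.53), whereas its paralog Bhlhe40 read 4.58 and 6.18 (1.60, WT 1.67). Nrros, which presents latent TGF-beta on microglia, read 6.97 and 4.65 (-2.32, WT -2.33). Nuak1, a kinase related to AMPK, read 6.62 and 4.37 (-2.25, WT -2.29). Abcd2, a peroxisomal transporter of very long-chain fatty acids, read 7.08 and 5.04 (-2.04, WT -2.32).

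Lpar6, a receptor for lysophosphatidic acid, read 8.28 and 5.96 (-2.32, WT -1.89). Il21r read 8.59 and 6.82 (-1.77, WT -1.72), and Gpr65, a proton-sensing receptor, read 8.70 and 6.97 (-1.73, WT -2.01). Gna15, which encodes a G protein alpha subunit of blood cells, read 7.45 and 5.67 (-1.78, WT -1.22). Cx3cr1, the receptor through which microglia sense neuronal fractalkine, read 9.76 and 8.35 (-1.41, WT -1.12). Cxcr4 read 6.36 and 5.01 (-1.35, WT -1.07), Il6ra 7.13 and 5.90 (-1.23, WT -1.19), and the ATP-gated channel gene P2rx7 7.18 and 5.98 (-1.20, WT -1.26). The purine and lipid receptor list had a median of -0.48 (WT -0.34). Of its 15 genes at the floor, 4 were at least 2-fold lower and 2 higher (all genes compared: 1.65% and 2.7%). The higher ones were Gpr84, a receptor for medium-chain fatty acids (9.66 and 10.88), and P2ry2 (4.78 and 5.81). Of 29 cytokine and chemokine receptors at the floor, 4 were lower and 3 higher, the higher ones being Ccrl2 (7.46 and 10.09), Il17ra (6.76 and 8.32) and Ccr7 (6.32 and 7.68).

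The list drawn up for the resting microglial state had a median of -0.40 with LPS over 28 genes at the floor (WT -0.14), and 24 of them were below 0. At 2-fold, 2 were lower, Cx3cr1 and P2ry13 (7.33 and 6.28). The 1 higher member was Gpr84 (1.22, WT 1.43), which the purine and lipid receptor list also holds. The 2-fold counts of this paragraph are to be read beside 2.7% of all genes compared higher and 1.65% lower. P2ry13 (-1.05) was under 2-fold after quantile normalization (-0.98) and with the intensity trend (-0.89) or both trends removed (-0.85). Olfml3 read 8.80 and 7.87 (-0.93, WT -0.49), and Trem2, a lipid receptor of microglia, read 8.34 and 7.43 (-0.91, WT 0.11). These single differences are to be read beside the median of -0.10 over all genes compared, and in bulk RNA fewer cells of a type and less RNA per cell cannot be told apart. Itgb8, an integrin gene whose product activates latent TGF-beta together with Nrros, read 5.19 and 6.84 (1.65, WT 2.07). In the adhesion list 2 of 22 at the floor were higher, the integrin gene Itga5 (7.93 and 9.56) and the hyaluronan receptor gene Cd44 (6.87 and 8.14), and 1 was lower, Cd200r1, a receptor for an inhibitory neuronal ligand (5.34 and 4.20). The phagocytosis and complement list had a median of -0.28 (WT -0.08), with Trem1, an amplifier of inflammatory signals, at 4.14 and 6.28 (2.14, WT 2.44), and the Fc receptor gene Fcgr3 at 7.71 and 6.69 (-1.02, WT 0.08). The lysosome and cathepsin list had 22 genes at the floor and 0 at 2-fold in either direction, with 20 below 0 and a median of -0.30 (WT -0.21). The lysosomal gene Pla2g15, at least 2-fold lower and described at the end, is not in that list. Of 14 genes of MHC class I presentation, 13 were below 0 with a median of -0.23 (WT -0.13) and 0 reached 2-fold. The median was -0.07 with both trends removed, and 60.1% of all genes compared were below 0. In the class II and costimulation list 4 of 13 were at least 2-fold higher: the costimulatory genes Cd83 (6.25 and 8.55), Tnfsf9 (5.84 and 7.63), Cd40 (6.75 and 8.51) and Cd80 (5.29 and 6.90). The class II gene H2-Ab1 itself read 5.36 and 5.38.

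**Figure D3:**
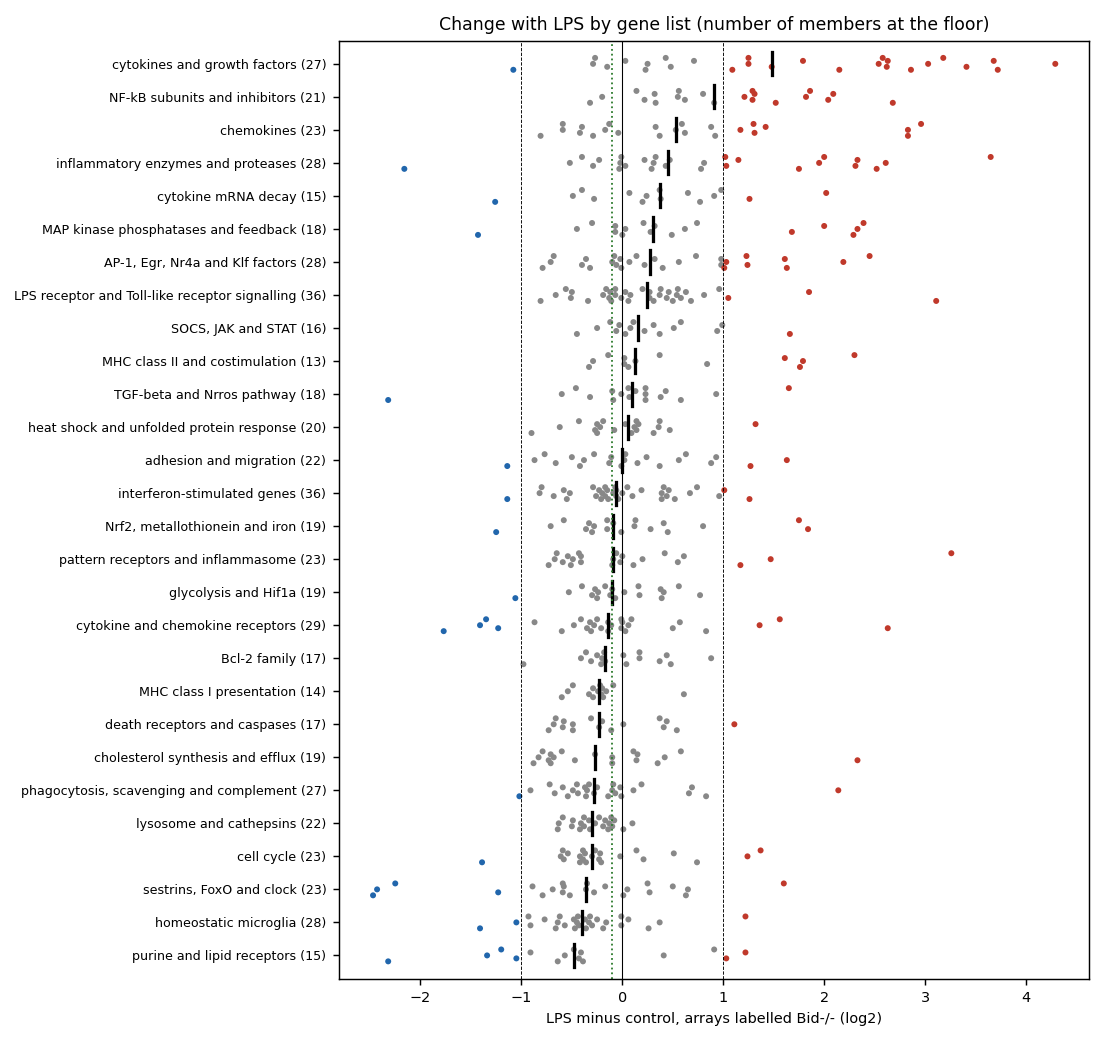
Difference with LPS (log2) of every gene at the floor in each of the 28 gene lists, with the number of genes in brackets; red points are past 2-fold upward, blue past 2-fold downward, black bars are list medians and the green dotted line is the median of all genes compared (-0.10). The cytokine list has the highest median (1.48) and the purine and lipid receptor list the lowest (-0.48).

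Together the 28 lists hold 584 genes at the floor, of which 87 were at least 2-fold higher (14.9%, against 2.7% of all genes compared) and 23 lower (3.94%, against 1.65%). The lists were drawn up around the LPS response, so these shares describe the lists. Genes of the Bcl-2 family, to which Bid belongs, held 0 of 17 at the floor past 2-fold in either direction. Bmf, a BH3-only gene like Bid, read 5.84 and 4.86 (-0.98, WT -0.57), and Bcl2l11, which encodes Bim, read 5.96 and 6.84 (0.88, WT 0.79). Bcl2l11 passed 2-fold, at 1.07, with the intensity trend removed and with both trends removed. The median of -0.17 (WT 0.17) changed sign to at most 0.02 under other processing. Among 17 genes of death receptors and caspases, 1 was at least 2-fold higher: Cflar, which encodes the caspase-8 inhibitor FLIP, at 8.83 and 9.94 (1.11, WT 1.08). When the mean of the probe sets of each gene was taken, 0 of the 17 were past 2-fold, so this call depends on the probe set chosen. Casp8, whose product cleaves Bid, read 8.63 and 8.14 (-0.49, WT -0.82), and its adaptor gene Fadd 6.09 and 5.51 (-0.58, WT -0.21).

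Of 36 interferon-stimulated genes, 2 were at least 2-fold higher (against 2.7% of all genes compared) and 1 lower (against 1.65%). The median of -0.06 (WT -0.28) ranged from -0.06 to 0.06 across the processing settings. Oasl1, at 0.96, passed 2-fold after quantile normalization (1.02) and with the intensity trend (1.05) or both trends removed (1.10), and Iigp1, described next, was then at -0.98 with both removed. Gbp5, an interferon-inducible GTPase, read 7.36 and 8.62 (1.26, WT 1.60). Ifih1, the RNA sensor MDA5, read 9.78 and 10.79 (1.01, WT 0.64). Iigp1 read 8.07 and 6.93 (-1.14, WT -1.58). Many members were bright before LPS: Irf7 read 11.47 on the control array and 11.30 with LPS, and Rsad2 10.51 and 11.18.

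Against the 4.35% of all genes compared that passed 2-fold, the glycolysis list had 0 of 19 higher and 1 lower, Egln3, a prolyl hydroxylase of Hif1a, at 7.00 and 5.94 (-1.06, WT -0.28). Egln3 was under 2-fold after quantile normalization (-0.96) and with the intensity trend (-0.87) or both trends removed (-0.83). Cell cycle genes had 2 of 23 higher, the stress kinases Plk3 (5.90 and 7.27) and Plk2 (7.66 and 8.90), and 1 lower, the cyclin gene Ccnd1 at 8.28 and 6.89 (-1.39, WT -1.37). In the list of sestrins, FoxO factors and clock genes, 4 of 23 were lower, Sesn1, Bhlhe41, Nuak1 and Trp53inp1 (6.48 and 5.25). In the list of Nrf2, metallothionein and iron genes, 2 of 19 were higher and 1 lower. The higher ones were Slc39a14, a zinc importer, at 6.25 and 8.09 (1.84, WT 1.69), and the cystine transporter gene Slc7a11, at 9.64 and 11.39 (1.75). The lower one was Slc30a1, a zinc exporter, at 6.56 and 5.31 (-1.25, WT -1.03). With both trends removed Slc30a1 (-0.99) and Trp53inp1 (-0.96) were under 2-fold. In the cholesterol list Ch25h alone was at least 2-fold higher, and 0 were lower; the sterol exporter gene Abcg1 read 10.04 and 9.16 (-0.88, WT -1.06). The heat shock list held 1 of 20 past 2-fold, Ppp1r15a, a stress-induced phosphatase subunit, at 6.27 and 7.59 (1.32, WT 1.93).

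Large gene families were set beside all genes compared, of which 6607 of 10995 (60.1%) were below 0. All of the oxidative phosphorylation subunit genes at the floor but 1 were below 0 with LPS (74 of 75), with a median of -0.38 on the arrays labelled Bid-/- against 0.20 in WT, and 0 reached 2-fold. Cytosolic ribosomal protein genes had 53 of 58 below 0 and a median of -0.25, against 0.26 in WT. Both medians were also negative after quantile normalization (-0.36 and -0.18) and after both trends were removed (-0.24 and -0.11). Of 205 zinc finger genes named Zfp, 81 were above and 123 below 0, with a median of -0.06 (WT -0.17). That median was 0.02 with the intensity trend removed, 0.05 with both trends removed and 0.09 at a floor of 6. The difference between the genotype labels was not tested. Across all genes the median difference varied with the span of the gene in the genome. On the arrays labelled Bid-/- it was -0.04 in the shortest of 10 equal bins, -0.19 in bin 5 and 0.02 in the longest bin, whereas in WT it was 0.14, -0.10 and -0.10. Genes at least 2-fold higher had a median span of 24.0 kb and those at least 2-fold lower of 24.9 kb, against 21.3 kb for all compared. With both trends removed, 140 of the 195 genes picked by the naming rule moved by over 0.1 and 0 changed sign.

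**Figure D4:**
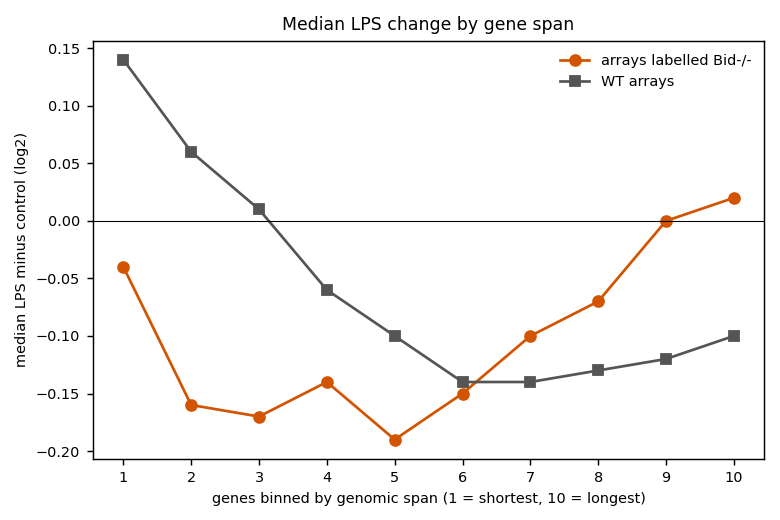
Median difference between LPS and control (log2) in 10 equal bins of the genes compared, ordered by genomic span from the shortest (1) to the longest (10), for the arrays labelled Bid-/- (orange circles) and WT (grey squares). The shortest bin is at -0.04 for the label Bid-/- and 0.14 for WT, the longest at 0.02 and -0.10.

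The WT pair shares no array with the pair labelled Bid-/-, so both responses can be set side by side, although with 1 array each the difference between them was not tested. In WT the 2-fold counts were 266 higher (2.39%) and 231 lower (2.08%). The lists shared 186 higher genes, 62.6% of those of the label Bid-/- and 69.9% of those of WT, and 106 lower genes, 58.6% and 45.9%. Past 2-fold, 0 genes moved in opposite directions, and 295 of the 297 higher and 180 of the 181 lower genes had the same sign in WT. The 297 higher genes had a median difference of 1.37 on the arrays labelled Bid-/- and 1.25 in WT, and the 181 lower genes -1.17 and -1.08. Because the genes were picked on the first pair, a larger median there follows in part from the choice. Of the 20 largest increases, 13 read higher on the LPS array labelled Bid-/- than on the WT LPS array, and 13 read higher on the control array than on the WT control array. Both held for 9 of them. These 20 genes were also picked on the pair labelled Bid-/-, so a high LPS level there follows in part from the choice. The same shares over all genes compared were not counted.

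**Figure D5:**
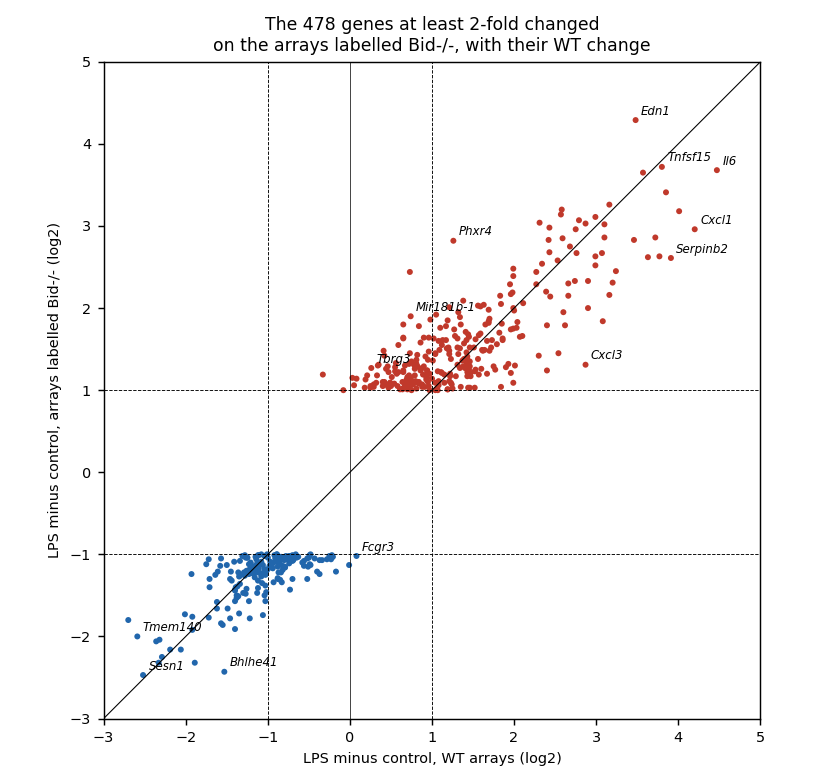
The 478 genes at least 2-fold changed on the arrays labelled Bid-/- (y axis, LPS minus control, log2) with their WT difference (x axis); red points are the 297 higher and blue the 181 lower genes, the solid line marks equal differences and the dashed lines 2-fold. Of the red points 186 lie past 2-fold in WT and of the blue points 106.

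A few genes passed 2-fold on the arrays labelled Bid-/- with a WT difference under 1.2-fold or of opposite sign: 11 of the 297 higher (3.7%) and 8 of the 181 lower (4.42%). The largest such increases were those of Tbrg3 (6.07 and 7.34, WT 0.26), Leng8 (6.72 and 7.90, WT 0.21), Mir125a (5.29 and 6.44, WT 0.03), Mir181a-1 (3.48 and 4.62, WT 0.08), Zfp407 (6.93 and 7.99, WT 0.05) and Wsb1 (9.35 and 10.40, WT 0.25). The largest such decreases were those of Lage3 (6.38 and 5.25, WT -0.01), Cebpzos (6.05 and 4.99, WT -0.23), Tmem71 (5.00 and 3.97, WT -0.21), Zfp791 (4.36 and 3.33, WT -0.21), Fcgr3 (7.71 and 6.69, WT 0.08) and Thap11 (6.04 and 5.02, WT -0.25). Their differences lay between 1.05 and 1.27 for the increases and between -1.13 and -1.02 for the decreases, all close to the 2-fold limit. Of the 6 decreases, 3 remained past 2-fold after quantile normalization, 1 with the intensity trend removed and 0 with both trends removed. With the intensity trend removed Lage3 was at -0.93, Fcgr3 at -0.90, Cebpzos at -0.87 and Thap11 at -0.83. Of the 6 increases, 4 remained past 2-fold with both trends removed. In the other direction, 22 of the 266 genes higher in WT (8.27%) and 5 of the 231 lower in WT (2.16%) had a difference under 1.2-fold or of opposite sign on the arrays labelled Bid-/-.

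The contrast was wider for some genes that were at least 2-fold higher in WT and not on the arrays labelled Bid-/-. Mmp3, a stromelysin, read 7.54 and 7.57 on the latter (0.03, WT 2.73), and Timp1, an inhibitor of metalloproteinases, 6.03 and 5.63 (-0.40, WT 2.58). Both were chosen after their values were seen. Markers of fibroblasts and mural cells moved alongside: their summed log2 level over 12 genes was 56.6 on the WT control array, 66.8 on the WT LPS array, 64.7 on the control and 63.9 on the LPS array labelled Bid-/-. On the arrays labelled Bid-/- 8 of the 12 were at the floor, 1 of them at least 2-fold higher (Pdgfrb, 4.45 and 5.56), and Lum, Postn, Sfrp4 and Cnn1 were below it. The WT control array thus stood below the other 3 for these markers, and their part in the Mmp3 and Timp1 values was not tested.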

How the data were processed

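The authors deposited 1 table of values for 28944 probe sets on 4 arrays; per the submitters' processing notes, RMA, Affymetrix Expression Console and Partek 6.2 were used, with no role or order given. The deposited values have 2 decimals and were taken as log2. The file does not state a log base, and every fold rests on that reading. As deposited, the arrays had medians of 4.24 to 4.28 and maxima of 13.08 to 13.5, so their distributions were close but not equal. Precision is limited by there being so few arrays.

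Platform annotation left 5534 probe sets without a symbol and gave several symbols to 1621, so the 21789 with 1 symbol were used. Where a gene had several probe sets (999 genes) the one with the highest mean over all arrays was taken, and 21698 probe sets matched the RefSeq gene table (GRCm38.p6), used for spans and coordinates. Differences, floor, counts and medians were computed with Python 3.11.15, pandas 2.3.3, numpy 2.4.6 and, for the trends, statsmodels 0.14.6 (lowess, span 0.3); figures used matplotlib 3.10.9. With 1 array per group no test was run. The 2-fold calls and the removal of the intensity trend were tried on simulated data. The planted changes were larger than 2-fold and in genes well above the floor. Calls near the 2-fold limit or near the floor were therefore not covered.

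The genes named are the 20 largest increases and 20 largest decreases, up to 5 genes per list with the largest differences (3 where none reached 2-fold), the 6 largest in each direction with a WT difference under 1.2-fold or opposite, microRNA genes past 2-fold, and 7 genes of the LPS receptor, death and Bid pathway. Further list members are named beside them as background to a count and were chosen after their values were seen. Names that are clone identifiers were counted but not described. The members and lists were chosen with earlier results of these data known. Alternatives were no floor, a floor of 6, quantile normalization, removal of trends, the mean of probe sets, and folds of 1.5 and 3.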

Additional observations from a re-analysis of the deposited data

Results flagged for a closer look

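Of the 195 genes named by the rule, 7 had LPS differences of opposite sign in the pair labelled Bid-/- and in the WT pair. Each of these differences was at least 1.2-fold. The share of all genes compared that did the same was not counted. Opposite signs were not limited to these genes: oxidative phosphorylation subunit genes had medians of -0.38 and 0.20 (WT), and cytosolic ribosomal protein genes -0.25 and 0.26. With 1 array per group the difference between the pairs was not tested. Bid differed by 0.44 on the arrays labelled Bid-/- and by -0.67 in WT. Nlrc5, a regulator of MHC class I genes, differed by 0.61 and by -0.57. The small heat shock protein gene Hspb1 differed by -0.43 and 0.50, and the platelet factor gene Pf4 by -0.59 and 0.40. The remaining genes mark fibroblasts and mural cells: Dcn differed by -0.65 (WT 1.37), Acta2 by -0.50 (WT 0.89) and Tagln by -0.49 (WT 1.60).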

How the results depend on the processing

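No paired analysis was possible because each group holds 1 array and the labels give no replicate numbers; for the same reason no array could be left out. The count of genes at least 2-fold higher on the arrays labelled Bid-/- (297) was between 264 and 386 under the other floors, normalizations and probe set rule, 757 at 1.5-fold and 112 at 3-fold. The count of genes at least 2-fold lower (181) was 102 with the intensity trend removed, 104 with intensity and span trends removed, 1141 at 1.5-fold and 24 at 3-fold. Genes higher in both genotypes (186) numbered 409 at 1.5-fold and 79 at 3-fold. Genes lower in both (106) numbered 69 and 66 with the trends removed, 602 at 1.5-fold and 15 at 3-fold. At 1.5-fold, 39.9% of the calls were higher and at 3-fold 82.4%, against 62.1% at 2-fold. Of 195 named genes, 0 changed sign under any floor, normalization or probe set rule in which they were compared. List medians changed sign under at least 1 of these for interferon-stimulated genes, pattern receptors, the Bcl-2 family, glycolysis, the Nrf2 and iron genes, and oligodendrocyte, neuron, and fibroblast and mural markers. Of the 121 named genes past 2-fold, 17 were under it in at least 1 of quantile normalization, removal of the intensity trend and removal of both trends, and 8 of the other 74 passed it. Genes near the floor have the least signal over background, and 14 of the 84 named genes that were at least 2-fold higher were below it on the control array.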

Other observations

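Further genes past 2-fold on the arrays labelled Bid-/-, chosen after their values were seen, included receptors and chromatin genes. Ahr, the aryl hydrocarbon receptor, read 5.12 on the control and 7.32 on the LPS array (2.20, WT 2.39), and Tiparp, a gene it induces, read 7.15 and 8.70 (1.55, WT 1.12). Hcar2, a receptor for nicotinic acid and ketone bodies, read 6.26 and 8.24 (1.98, WT 1.69). Kcna3, a voltage-gated potassium channel gene of microglia and T cells, read 5.88 and 7.91 (2.03, WT 1.56). Tet2, which oxidizes methylated cytosine, read 5.57 and 7.05 (1.48, WT 1.21), and Kmt2a, a histone methyltransferase gene, read 7.10 and 8.74 (1.64, WT 0.90). The NF-kB-site binding factor genes Hivep2 (5.12 and 7.13, WT 1.21) and Hivep3 (5.09 and 7.04, WT 1.32) were higher with LPS. Hivep1, of the same family, was just under 2-fold (0.98) and past it after quantile normalization (1.05). Notch2 read 8.98 and 10.22 (1.24, WT 0.65) and its ligand gene Jag1 read 7.78 and 8.86 (1.08, WT 0.84).

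Some single lower genes, also chosen after their values were seen, follow. Galc, which degrades galactosylceramide, read 7.05 and 5.75 (-1.30, WT -1.71), and the lysosomal phospholipase gene Pla2g15 read 7.85 and 6.32 (-1.53, WT -1.38). The transporter genes Ctns for cystine (6.24 and 5.10, WT -1.15), Slc17a5 for sialic acid (7.39 and 6.27, WT -1.75) and Slc29a3 for nucleosides (7.56 and 6.36, WT -1.04) were at least 2-fold lower with LPS. Mavs, the mitochondrial adaptor of RNA sensing, read 6.87 and 5.83 (-1.04, WT -0.65). With the intensity trend removed Slc17a5 (-0.96), Ctns (-0.94) and Mavs (-0.85) were under 2-fold.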
